A study of Homo sapiens with 8 samples.

Results

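DPEP1 and 9 further genes for membrane-bound peptidases and gamma-glutamyl transferases were examined in xenograft tumours of H2122, a human lung cancer line. The genes were taken by symbol from the count files (DPEP1, DPEP2, DPEP3, GGT1, GGT6, GGT7, ANPEP, DPP4, MME and ENPEP), and all 10 were found among 59050 symbols. They were selected on the counts of the knockout and parental tumours compared here, so their values are given as a description, and no p-value is given for any of them. The study holds 4 tumours of parental cells (genotype WT) and 4 tumours of SMARCA4 KO cells. SMARCA4 is the gene of a motor subunit of SWI/SNF chromatin remodellers. All 8 tumours had vehicle as their treatment. How the knockout was made, whether its cells are 1 clone, and the strain and age of the host mice are not given in the sources used here. The labels number the tumours without saying that each is from its own animal, so p-values measure only the spread between these samples, which may be partly technical.

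Gene counts per library ranged from 19785922 to 23191698. SMARCA4 was at 198 to 235 CPM (library-scaled counts, CPM) in parental tumours and at 22.3 to 31.1 CPM in knockout tumours, so the libraries matched their labels. Of 8 epithelial and lung cancer markers, EPCAM and the keratins were abundant, while the lung lineage factor NKX2-1 had 0 counts in all 8 libraries. Leukocyte markers (10 genes) summed to 164 and 142 CPM in parental replicates 2 and 3 and to 13.8 to 43.2 CPM in the other 6 tumours.

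Membrane peptidases sit on the cell surface and trim peptides outside the cell. Gamma-glutamyl transferases start the breakdown of extracellular glutathione, and of the leukotriene conjugated to it, by removing the gamma-glutamyl group. Dipeptidases of the DPEP family, held in the membrane by a GPI anchor, then split the dipeptide that remains. ANPEP, DPP4, MME and ENPEP shorten peptide hormones, and in kidney and gut several of these enzymes are found on the brush border of epithelial cells.

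Sequences before annotated starts of DPEP1 and ANPEP are shown because one gene was higher and the other lower in knockout tumours. RefSeq (GRCh38.p14) windows were found for 8 of the 10 genes, with no entry for DPEP2 and GGT6. DPEP1 (chromosome 16, 89613308 to 89638456, plus strand, GENCODE 29 on GRCh38) has 4 windows and ANPEP (chromosome 15, 89784889 to 89815401, minus strand) has 2, and gene counts do not show which start was used. The 250 bases before each start were searched on both strands for the TATA box (TATAAA), the AP-1 site (TGANTCA), the TEAD site (GGAATG), the GC box (GGGCGG) and the ETS core (AGGAAG). Capitals mark the matches: ETS cores in the first sequence, a TEAD site and then a TATA box in the second, and GC boxes, of which the last pair overlap, in the third.
DPEP1, first window, chr16:89616635-89616884, plus strand: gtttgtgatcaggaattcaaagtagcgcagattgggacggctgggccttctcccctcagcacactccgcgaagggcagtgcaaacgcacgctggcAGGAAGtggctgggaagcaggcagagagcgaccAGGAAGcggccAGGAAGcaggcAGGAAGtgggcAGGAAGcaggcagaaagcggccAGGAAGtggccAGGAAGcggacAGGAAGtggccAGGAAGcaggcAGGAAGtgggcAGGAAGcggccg
DPEP1, last window, chr16:89630020-89630269, plus strand: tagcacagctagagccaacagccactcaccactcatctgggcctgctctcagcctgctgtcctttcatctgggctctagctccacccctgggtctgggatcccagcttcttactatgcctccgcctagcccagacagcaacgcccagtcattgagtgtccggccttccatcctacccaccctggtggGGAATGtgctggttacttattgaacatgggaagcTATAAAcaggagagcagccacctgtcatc
ANPEP, outer window, chr15:89814853-89815102, minus strand: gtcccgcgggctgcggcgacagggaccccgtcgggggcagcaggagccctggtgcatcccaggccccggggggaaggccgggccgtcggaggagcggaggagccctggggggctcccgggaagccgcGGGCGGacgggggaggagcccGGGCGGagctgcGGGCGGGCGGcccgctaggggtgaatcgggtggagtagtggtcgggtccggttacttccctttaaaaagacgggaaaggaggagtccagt

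The first DPEP1 window repeats the ETS core 11 times, and it was the 1 window of 35116 with at least 11 matches, while 28.7% of all windows held the core. The ETS core was added to the search after this window was seen, so its rank describes the window and tests nothing. In the last DPEP1 window the TATA box and the TEAD site each stand once, and 10.7% and 11.9% of all windows hold them. The outer ANPEP window holds 4 GC boxes, as many as 7.63% of all windows have, and 42.6% have at least 1. The AP-1 site, present in 6.57% of all windows, was in none of the 16 windows of the 8 genes. A match is a string of letters and not a measured binding site, and no match says only that the letters are not in the window.

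Of the 10 genes, 7 passed the filter on low counts, and 4 of the 7 had an adjusted p under 0.05 in the fit across all genes, 1 higher and 3 lower in knockout tumours. Over all 16219 genes tested the share called was 27.0%, made up of 13.0% higher and 14.1% lower. The same 4 genes, DPEP1, GGT1, GGT6 and ANPEP, had groups that did not overlap, which held for 29.3% of all genes tested. Since this comparison chose the set, these counts describe it and test nothing, and nothing is read from the shares. DPEP1 passed the filter through the knockout tumours alone and GGT6 through the parental tumours alone, whereas DPEP2, DPEP3 and MME did not pass it.

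**Figure D1:**
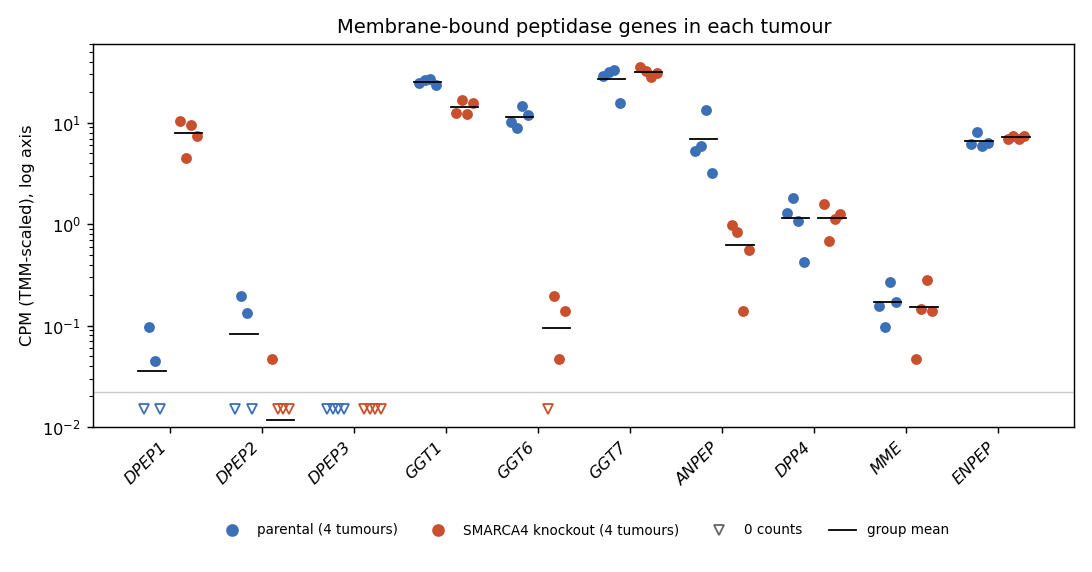
CPM of each of the 10 genes on a log axis, with 1 point per tumour (blue parental, red SMARCA4 knockout), black lines at the group means and open triangles under the grey line for tumours with 0 counts. DPEP1 is high in the 4 knockout tumours, GGT1, GGT6 and ANPEP are higher in the 4 parental tumours, and the groups overlap for the other 6 genes.

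DPEP1 encodes the membrane dipeptidase of the renal brush border, which splits cysteinylglycine and converts leukotriene D4. It was counted 0, 2, 1 and 0 times in the parental tumours (replicates 1 to 4) and 222, 93, 206 and 158 times in the knockout tumours. In CPM the knockout tumours stood at 10.4, 4.53, 9.61 and 7.38, and the highest parental tumour stood at 0.0976. All 4 knockout tumours were thus high and all 4 parental tumours near 0, with a 2.29-fold range among the knockout tumours. The pooled ratio, knockout over parental, was 229 (exact 95% interval 78.0 to 1112, counting error only). It was 522 (93.5 to 20666) without parental replicate 2, which held 2 of the 3 parental counts. No exonic base of DPEP1 is shared with another gene in GENCODE 29, and none of its 2863 distinct 50-base transcript words occurs in another gene's transcripts.

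Relatives of DPEP1 were near or at 0 in both groups. DPEP2, a leukotriene dipeptidase of leukocytes, was counted 0, 4, 3 and 0 times in the parental tumours (replicates 1 to 4) and 1, 0, 0 and 0 times in the knockout tumours. Its parental counts were all in replicates 2 and 3, the tumours with the highest leukocyte marker sums, and the part of leukocytes in them was not tested. The pooled ratio, parental over knockout, was 6.92 with a 95% interval of 0.889 to 312, so a difference in DPEP2 was not detectable at this depth. With single tumours left out the result was not stable. The ratio was 3.90 (0.313 to 205) without parental replicate 2, whereas the interval lay above 1 without parental replicate 1 (1.15 to 403), without parental replicate 4 (1.23 to 430) and without knockout replicate 1 (lower limit 1.07). DPEP3, known from the testis, was at 0 counts in each of the 8 libraries, where 0 counts leave room for up to 3. DPEP2 and DPEP3 lie next to each other on the minus strand of chromosome 16, at 67987394 to 68000586 and 67975663 to 67980829, apart from DPEP1.

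The gamma-glutamyl transferase genes differed from one another. GGT6 (chromosome 17, 4556927 to 4560818, minus strand), a little-described member of the family, was counted 199, 182, 325 and 284 times in the parental tumours (replicates 1 to 4) and 0, 4, 1 and 3 times in the knockout tumours. Its mean was 11.4 ± 2.43 CPM in the parental group and 0.0954 ± 0.0883 CPM in the knockout group (SD, n = 4 each). The lowest parental tumour was at 8.89 CPM and the highest knockout tumour at 0.195 CPM, so the groups lay far apart. The fitted log2 fold change was -6.84 (SE 0.391). The pooled ratio, parental over knockout, was 122 (95% interval 61.9 to 284), or 186 (72.2 to 682) without knockout replicate 2, which held 4 of the 8 knockout counts.

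GGT1 (chromosome 22, 24583750 to 24629005, plus strand), the main transferase at the cell surface, had 24.7, 26.2, 27.2 and 23.8 CPM in parental replicates 1 to 4 and 12.4, 16.9, 12.4 and 15.6 CPM in the knockout tumours. Every knockout tumour lay below every parental tumour, and the log2 fold change was -0.83 (SE 0.121). Its counts are uncertain, because 35.9% of its 5202 distinct 50-base transcript words also occur in other genes' transcripts, most often in the copies GGT2 and GGT3P, and 6.90% of its exonic bases overlap exons of SNRPD3. GGT7 (chromosome 20, 34844720 to 34872860, minus strand), a relative without a firmly described activity, had 28.7, 31.7, 32.9 and 15.6 CPM in parental replicates 1 to 4, and 35.5, 32.3, 28.0 and 31.3 CPM in the knockout tumours. The groups overlapped, with parental replicate 4 the lowest of all 8. The log2 fold change of GGT7 was 0.22 (SE 0.196), and 0.02 without parental replicate 4.

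ANPEP encodes aminopeptidase N, which removes neutral residues from the N-terminus of peptides and is found on brush border epithelia, myeloid cells and pericytes. It was counted 103, 120, 298 and 75 times in the parental tumours (replicates 1 to 4) and 21, 17, 3 and 12 times in the knockout tumours. The parental tumours stood at 5.33, 5.86, 13.3 and 3.19 CPM, and the knockout tumours lay between 0.140 and 0.981 CPM. The groups did not overlap, although parental tumours ranged 4.17-fold and knockout tumours 7.01-fold. The log2 fold change was -3.46 (SE 0.523), and -2.92 without parental replicate 3, the tumour with the highest level. Parental replicate 3 also had a leukocyte marker sum of 142 CPM and the highest endothelial and pericyte marker sum (21.7 CPM). The highest leukocyte sum, 164 CPM, was in parental replicate 2, where ANPEP stood at 5.86 CPM. Leukocyte sums were 23.5 and 13.8 CPM in parental replicates 1 and 4 and 19.5 to 43.2 CPM in the knockout tumours. Without parental replicates 2 and 3 the log2 fold change of ANPEP was -2.76 (SE 0.442). The part of these cells in the ANPEP values was not tested. In whole tumours, fewer cells that make a transcript and less of it per cell cannot be told apart.

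The remaining peptidases showed overlapping groups. ENPEP (chromosome 4, 110365733 to 110565285, plus strand), aminopeptidase A, which takes the N-terminal acidic residue from angiotensin II, was at 6.16, 8.20, 5.90 and 6.34 CPM in parental replicates 1 to 4, and at 7.01, 7.46, 6.91 and 7.42 CPM in the knockout tumours. The knockout values lay within the parental range, and the log2 fold change was 0.12 (SE 0.141). DPP4 (chromosome 2, 161992241 to 162074542, minus strand), a dipeptidyl peptidase that inactivates incretins and chemokines, was counted 25, 37, 24 and 10 times in the parental tumours (replicates 1 to 4) and 34, 14, 24 and 27 times in the knockout tumours. Its log2 fold change was 0.03 (SE 0.398) and, with single tumours left out, lay between -0.26 and 0.34, so its sign depended on single tumours. MME (chromosome 3, 155024124 to 155183729, plus strand), the neutral endopeptidase neprilysin, was counted 3, 2, 6 and 4 times in the parental tumours (replicates 1 to 4) and 1, 3, 6 and 3 times in the knockout tumours. The pooled MME ratio, parental over knockout, was 1.14 (95% interval 0.507 to 2.61), too wide to show a difference in either direction.

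**Figure D2:**
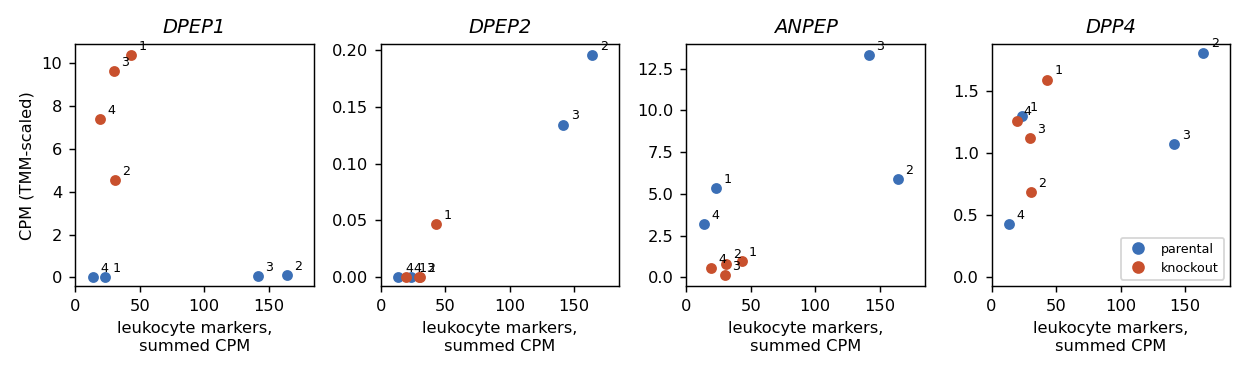
CPM of DPEP1, DPEP2, ANPEP and DPP4 (vertical) against the summed CPM of 10 leukocyte markers (horizontal), with 1 point per tumour, numbered by replicate. Parental replicates 2 and 3 lie at the right of each panel, and hold all 7 parental counts of DPEP2 and all 3 parental counts of DPEP1.

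Levels were compared between genes per kilobase of exon. In parental tumours GGT7 stood first at 9.18 ± 2.69 CPM per kilobase, followed by GGT1 at 5.75 ± 0.348 and GGT6 at 3.62 ± 0.768 (SD, n = 4 each). ANPEP (1.42 ± 0.906), ENPEP (0.852 ± 0.135) and DPP4 (0.229 ± 0.114 CPM per kilobase) came next, and DPEP2, MME, DPEP1 and DPEP3 were last. Between neighbours in this order, ranges over tumours overlapped for GGT7 and GGT1, for ANPEP and ENPEP, and among the last 4 genes. In knockout tumours GGT7 (10.7 ± 1.04 CPM per kilobase) stood above all others, and the ranges of GGT1 (3.23 ± 0.513) and DPEP1 (2.91 ± 0.958), next in order, overlapped. ENPEP followed at 0.923 ± 0.0362 CPM per kilobase, apart from its neighbours on both sides. From DPP4 through ANPEP, GGT6, MME and DPEP2 to DPEP3, each gene overlapped the next. DPEP1 was thus in rank 9 in the parental and rank 3 in the knockout group, and GGT6 in ranks 3 and 7.

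Markers of host cells were summed because fibroblasts, vessels and leukocytes also make several of these enzymes. None of 6 marker sums passed an exact two-sided permutation test between groups after adjustment over the 6, where the smallest possible p is 0.0286. With 4 against 4 tumours a single sum without any overlap cannot go below 0.171 after adjustment, so failing to pass says little. Fibroblast markers, all 10 with counts, summed to 182 to 611 CPM in parental and 347 to 609 CPM in knockout tumours (exact p = 0.400, adjusted 0.600), mostly COL1A1, and LUM alone of 7 tested rose in knockout tumours. Endothelial and pericyte markers, all 10 with counts, summed to 9.99 to 21.7 CPM and 12.7 to 19.3 CPM (exact p = 0.771, adjusted 0.771), mostly PECAM1, and of 4 tested CSPG4 rose and VWF fell. CSPG4 passed the filter through the knockout tumours alone and VWF through the parental tumours alone. CDH5, under the filter, had 36 parental counts, 26 of them in replicate 3, and 0 knockout counts, and KDR, also under the filter, had 38 and 9. Leukocyte markers gave an exact p of 0.400 (adjusted 0.600), with 0 of 8 tested called. CD74 alone made up 110 of the 164 CPM in parental replicate 2 and 98.9 of the 142 CPM in parental replicate 3. Adipocyte markers (5 of 6 with counts, ADIPOQ at 0) gave 0.537 to 1.25 CPM and 1.31 to 2.89 CPM without overlap (exact p = 0.0286, adjusted 0.171). Skeletal muscle markers ranged from 0.155 to 33.8 CPM and from 0.0975 to 15.2 CPM (exact p = 0.657, adjusted 0.771). The epithelial sum was 7505 to 8814 CPM and 6599 to 7972 CPM (exact p = 0.114, adjusted 0.343), and KRT7 and KRT19 fell. The part of any of these cells in the values of the 10 genes was not tested.

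Membrane-bound peptidases outside the set were counted from a list of 29 genes. This list and the lists that follow were chosen with earlier results of these data known. Their shares and medians are therefore a description and test nothing. Of 14 tested, 11 changed (78.6%), 3 higher and 8 lower in knockout tumours, beside 27.0% of all genes tested. Their median log2 fold change was -0.44, beside 0.0035 for all genes tested. PRSS8, the membrane-anchored serine protease prostasin, fell (89.5 ± 15.9 CPM in parental against 31.5 ± 2.94 CPM in knockout tumours; log2 difference -1.51, SE 0.130, adjusted p = 1.16e-05 by edgeR). TMPRSS2, a transmembrane serine protease of epithelia, fell (3.35 ± 2.26 CPM in parental against 0.118 ± 0.0611 CPM in knockout tumours; log2 difference -4.77, SE 0.600, adjusted p = 0.000159 by edgeR). TMPRSS2 had 296 parental and 10 knockout counts and passed the filter through the parental tumours alone, so these values are a description. MMEL1, a relative of MME, fell as well (2.37 ± 0.852 CPM in parental against 0.401 ± 0.0961 CPM in knockout tumours; SD, n = 4 each; log2 difference -2.55, SE 0.326, adjusted p = 0.000177 by edgeR). HPN, BACE1 and the carboxypeptidase M gene rose, while ECE1, PHEX, BACE2, TMPRSS4 and ST14 fell. CPD, LNPEP and FAP did not pass the test.

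**Figure D3:**
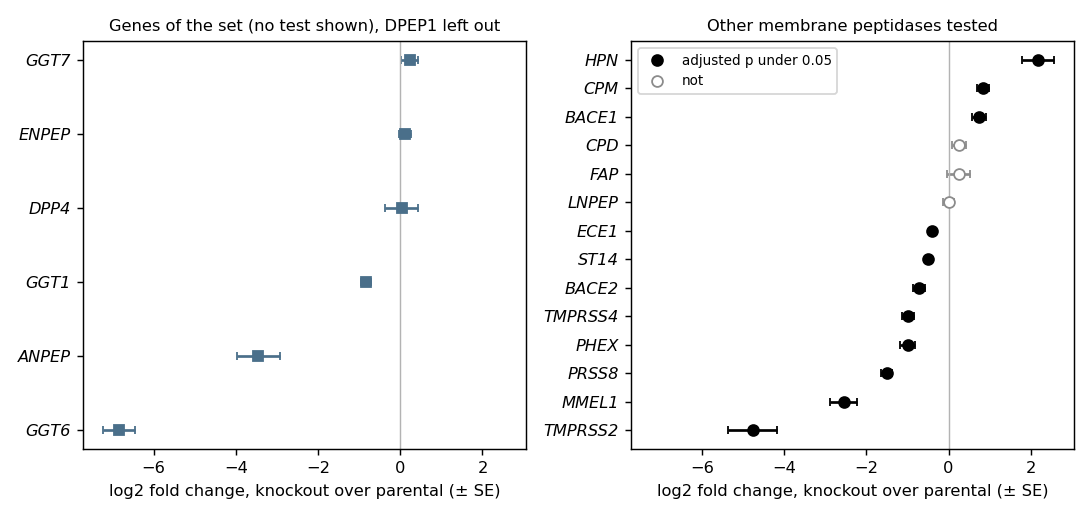
Log2 fold changes, knockout over parental, with standard errors (bars) for 6 genes of the set (left, squares, no test shown) and 14 other membrane peptidases (right, circles, where the row CPM is the carboxypeptidase M gene). Filled circles have an adjusted p under 0.05. DPEP1 is left out because its fitted value rests on 3 parental counts, and on the right 8 filled circles lie below 0 and 3 above.

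Soluble aminopeptidases and dipeptidases, which cleave similar bonds inside the cell or in lysosomes, were counted beside them. Of 23 tested from a list of 25, 5 changed (21.7%, beside 27.0% of all genes tested), all lower, and the median log2 fold change was -0.15. The direction depended on the scaling, since upper-quartile scaling gave 2 higher and 3 lower. CTSC, the lysosomal dipeptidyl peptidase cathepsin C, fell (215 ± 24.6 CPM in parental against 133 ± 4.22 CPM in knockout tumours; log2 difference -0.70, SE 0.0938, adjusted p = 0.000251 by edgeR). CNDP2, a cytosolic dipeptidase that also splits cysteinylglycine, fell (87.0 ± 3.95 CPM in parental against 60.6 ± 4.57 CPM in knockout tumours; log2 difference -0.52, SE 0.0819, adjusted p = 0.000733 by edgeR). DPP3, a cytosolic dipeptidyl peptidase, fell (log2 difference -0.30, SE 0.0811, adjusted p = 0.0169 by edgeR), with adjusted p = 0.0590 without knockout replicate 1 and 0.0608 without knockout replicate 2. Without parental replicates 2 and 3 the adjusted p of DPP3 by edgeR was 0.0552. The list had 2 changed genes without knockout replicate 1, and 3 without knockout replicate 2, 3 or 4.

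Genes of glutathione and leukotriene metabolism, with cystine import and leukotriene receptors among them, were counted next. Of 21 tested from a list of 22, 7 changed (33.3%, beside 27.0% of all genes tested), 4 higher and 3 lower, and the median log2 fold change was -0.07. MGST3, a microsomal glutathione transferase, rose (75.9 ± 6.39 CPM in parental against 148 ± 10.6 CPM in knockout tumours; log2 difference 0.96, SE 0.0898, adjusted p = 2.06e-05 by edgeR). The exporters of glutathione conjugates ABCC2 (242 ± 23.0 CPM in parental against 487 ± 45.4 CPM in knockout tumours; log2 difference 1.01, SE 0.0990, adjusted p = 2.85e-05 by edgeR) and ABCC1 (294 ± 25.5 CPM in parental against 511 ± 20.7 CPM in knockout tumours; log2 difference 0.80, SE 0.0859, adjusted p = 5.24e-05 by edgeR) rose too. GCLC, the catalytic subunit of the first step of glutathione synthesis, rose, and GGCT and the 5-lipoxygenase gene ALOX5 fell. GGT5, a further transferase able to act on leukotriene C4, fell (12.2 ± 3.44 CPM in parental against 2.25 ± 0.639 CPM in knockout tumours; log2 difference -2.43, SE 0.265, adjusted p = 5.77e-05 by edgeR).

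Brush border genes were compared because several of the 10 enzymes are known from that structure. Of 19 tested from a list of 32, 9 changed (47.4%, beside 27.0% of all genes tested), 4 higher and 5 lower, and the median log2 fold change was 0.13. VIL1, the gene of the actin bundler villin, fell (7.56 ± 1.11 CPM in parental against 0.414 ± 0.0935 CPM in knockout tumours; log2 difference -4.17, SE 0.222, adjusted p = 6.6e-07 by edgeR). SLC9A3R1, a scaffold under the apical membrane, fell (93.9 ± 12.4 CPM in parental against 45.8 ± 3.53 CPM in knockout tumours; log2 difference -1.03, SE 0.108, adjusted p = 4.16e-05 by edgeR). MGAM, a brush border glucosidase, fell (0.975 ± 0.429 CPM in parental against 0.0939 ± 0.0655 CPM in knockout tumours; log2 difference -3.29, SE 0.498, adjusted p = 0.000558 by edgeR). MGAM had 84 parental and 8 knockout counts and passed the filter through the parental tumours alone, so these values are a description. SLC15A2 and HNF4G fell too, and CDHR5, MYO7B and HNF4A were among those that rose. SI, SLC6A19 and CDX2 had 0 counts in all libraries.

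Genes for the GPI anchor, which DPEP1 carries, were counted as well. Of 27 tested from a list of 28, 5 changed (18.5%, beside 27.0% of all genes tested), 2 higher and 3 lower, and the median log2 fold change was 0.07. PIGT (log2 difference -0.50, SE 0.0741, adjusted p = 0.000500 by edgeR) and GPAA1 (log2 difference -0.56, SE 0.109, adjusted p = 0.00303 by edgeR), subunits of the transamidase that attaches the anchor, fell. PIGH, a subunit of the enzyme for the first step, rose (log2 difference 0.38, SE 0.115, adjusted p = 0.0289 by edgeR). The PIGH call was lost in 6 of 17 alternatives, and some are given here. By edgeR, adjusted p was 0.0593 with no filter, 0.0899 without parental replicate 1, 0.0875 without knockout replicate 1 and 0.0918 without knockout replicate 2. The list had 2 changed genes without knockout replicate 1, and 3 without parental replicate 3 or knockout replicate 3.

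Neighbouring genes were compared because position played no part in choosing the set. Of the 5 nearest tested genes on each side of DPEP1, 1 of 10 changed, beside 27.0% of all genes tested, and their log2 fold changes ran from -0.30 to 0.51. CHMP1A, 5.98 kb from DPEP1 on its right, had -0.10 (SE 0.0871, adjusted p = 0.425 by edgeR), and CPNE7, 16.1 kb away on its left, had -0.30 (SE 0.220, adjusted p = 0.353 by edgeR). SPG7, a mitochondrial protease gene 55.5 kb to the left, rose (log2 difference 0.51, SE 0.147, adjusted p = 0.0249 by edgeR). That call was lost without parental replicate 1 (adjusted p = 0.0693), parental replicate 4 (0.0545), knockout replicate 2 (0.0549) or knockout replicate 4 (0.0656). Around the other 9 genes of the set, 4 of 16 nearest tested neighbours changed, 2 higher and 2 lower. MYBBP1A and PELP1, on either side of GGT6, had log2 fold changes of -0.03 and 0.03, and MESP2 and AP3S2, on either side of ANPEP, had 0.56 and -0.19, none past the threshold.

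**Figure D4:**
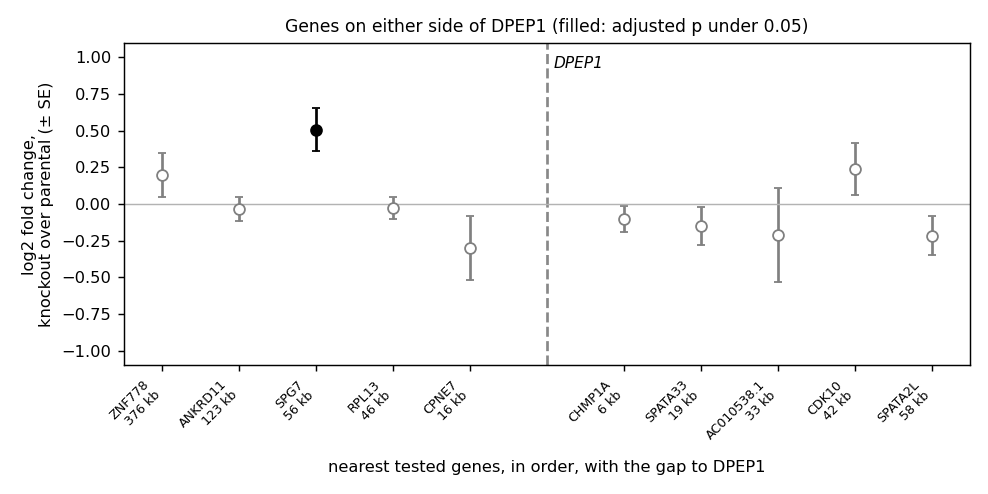
Log2 fold changes, knockout over parental, with standard errors (bars) for the 5 nearest tested genes on each side of DPEP1, in genomic order, with the gap to DPEP1 in kilobases. SPG7 is the 1 filled point (adjusted p under 0.05), and the 10 values lie between -0.30 and 0.51.

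Genes with the pattern most like that of DPEP1 were found by the root mean square difference of log2 CPM over the 8 tumours, each gene centred on its parental mean. They were IGFBP1 (0.56), TFPI2 (1.23), SLC1A2 (1.48), CRB1 (1.75) and LUM (1.82). IGFBP1 had 54 counts over the parental and 6104 over the knockout tumours, and LUM, which was also on the fibroblast list, had 33 and 1053. SLC1A2 had 11 parental and 800 knockout counts, and CRB1 had 14 and 825. The measure includes the group difference on which the set was chosen, so likeness is a description and tests nothing. By the same measure the gene most like GGT6 was MIR205HG (0.72), the one most like ANPEP was FUT6 (0.67) and the one most like GGT1 was ZBTB18 (0.085). MIR205HG stood at 35.7 ± 18.9 CPM in the parental group and 0.364 ± 0.338 CPM in the knockout group (SD, n = 4 each), and FUT6 at 5.91 ± 3.87 CPM and 0.607 ± 0.325 CPM.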

How the data were processed

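RNA-seq read counts of 8 xenografts, 4 parental and 4 SMARCA4 knockout, were analysed, with groups and replicate numbers taken from the sample titles. The deposited values are raw counts per gene symbol, 1 file per tumour with no pooling. The submitters' processing notes name TopHat2 2.1.1, HTSeq 0.11.0 and hg38. The annotation, the counting options, the use of strand and any removal of mouse reads are not given in the sources used here, so reads of near-identical copies or of antisense genes may be lost or misassigned. Between 79.1% and 85.2% of reads were assigned to a gene, and summary lines were left out. Every pair of libraries differed by more than counting error (chi-square per degree of freedom at least 8.21).

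Genes were filtered with filterByExpr (minimum count 10, minimum total 15), scaled by TMM and compared by the quasi-likelihood test of edgeR 4.0.16 in R 4.3.3, with Benjamini-Hochberg adjustment over 16219 genes and a threshold of 0.05. The SE is the log2 fold change divided by the square root of F. The fit was run on data simulated from its own model, with known changes smaller than those of DPEP1 and GGT6. The outcome is not given here, and nothing is read from it. Pooled count ratios have exact 95% intervals, and 0 counts were taken to allow up to 3. Intervals cover counting error only. Marker sums were compared by exact permutation in scipy 1.17.1. Positions and exon lengths are from GENCODE 29 on GRCh38. One gene of the soluble peptidase list is not analysed here, and some results of the brush border list and the motif search are not reported here.

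The members and the lists were chosen with earlier results of these data known. The genes named were the 10 members, SMARCA4, the 3 called genes with the smallest p in each list, the nearest tested neighbours, and the genes most like DPEP1 (5) and like each other tested member without overlap (1 each; offset 0.5 counts, average log2 CPM of at least 1); others were named after their values were seen. The ETS core was added to the motifs after the DPEP1 window was seen. Alternatives were DESeq2 1.42.0, limma-voom (limma 3.58.1), other scalings and filters, the replicate block and leaving out each tumour.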

Additional observations from a re-analysis of the deposited data

Results flagged for a closer look

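In each group of 4 tumours, the gap of the most extreme value to its neighbour was set against the range of the group, and of 100 such sets 3 had a value far from the others, where chance gives about 5%. In knockout replicate 1 DPEP2 was at 0.0467 CPM (1 count), against 0 in the remaining 3 knockout tumours, and a lone count beside 3 zeros always stands apart by this measure. ZNF778, a neighbour of DPEP1, was at 6.16 CPM in parental replicate 1 and at 8.89 to 9.44 CPM in the other parental tumours. Skeletal muscle markers summed to 15.2 CPM in knockout replicate 4 and to 0.0975 to 0.514 CPM in the other knockout tumours, while DPEP1 in that tumour, at 7.38 CPM, was within the range of the others.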

How the results depend on the processing

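The count of members past the threshold was 4 in all 17 alternatives to the fit, which is no sign of stability, since the values compared were used to choose the members. The other membrane peptidases gave 11 to 13 calls over the alternatives on all tumours and 11 whichever single tumour was left out. All genes tested gave 3871 to 4902 calls on all tumours and 3501 to 4721 with 1 tumour left out, and by upper-quartile scaling 54.1% of the calls were higher, against 47.9%. For the GPI anchor list the count of 5 became 3 with no filter, 3 by limma-voom and 2 with the replicate block, and ran from 2 to 5 with 1 tumour left out. For the soluble list it ran from 2 to 6 with 1 tumour left out, and 1 of the calls was higher at a minimum count of 30, by DESeq2 and with the replicate block. The PIGH call was lost with the block (adjusted p = 0.0629). For the neighbours of DPEP1 it was 0 with the replicate block and 0 to 1 with 1 tumour left out, where the call lost was SPG7 (adjusted p = 0.0539 with the block); the cause was not tested. The replicate number was not shown to pair the tumours: deviations of same-numbered tumours had correlations of -0.19 to 0.09, 0 of 4 correlated best with their own number, and the block gave 3871 calls over all genes. Leaving out both parental tumours with many leukocyte markers, replicates 2 and 3, an alternative added after the data were seen, gave 4946 calls over all genes. At this depth DPEP2, DPEP3 and MME had too few counts for a test.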

Other observations

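Values of genes outside the rule for naming were picked after they were seen. Of 7 copies of GGT1 examined, GGT2 and GGT3P had more counts in every knockout than in every parental tumour. The other 5 overlapped between groups, among them GGT4P with 8 parental and 7 knockout counts. Groups without overlap were also seen for 29.3% of all genes tested, so nothing is read from this count of copies. The gene GGT2 was counted 1, 2, 0 and 0 times in the parental tumours (replicates 1 to 4) and 11, 7, 5 and 5 times in the knockout tumours. Its pooled ratio, knockout over parental, was 9.44 (95% interval 2.91 to 48.5), and 21.5 (3.56 to 881) without parental replicate 2. The pseudogene GGT3P was counted 1, 1, 0 and 0 times in the parental tumours (replicates 1 to 4) and 5, 8, 8 and 15 times in the knockout tumours. Its pooled ratio, knockout over parental, was 18.2 (95% interval 4.69 to 156), and 28.2 and 27.7 without parental replicate 1 and 2. Whether these reads came from the copies or from GGT1 was not tested.

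Among membrane peptidases under the filter, TRHDE, which degrades thyrotropin-releasing hormone, had 18 parental and 0 knockout counts, and FOLH1 had 10 and 0. In parental replicates 1 to 4 TRHDE was counted 2, 6, 3 and 7 times and FOLH1 4, 0, 3 and 3 times. Parental replicate 2 was thus at 0 for FOLH1, like the knockout tumours, and the groups overlapped. The exact 95% lower limits of the pooled ratio, parental over knockout, were 4.35 for TRHDE and 2.22 for FOLH1, counting error only. Set against a floor of 3 knockout counts, with the parental counts taken as free of error, the ratios were 5.93 and 3.30. CNDP1, a secreted dipeptidase, had 15 parental and 2 knockout counts, a pooled ratio, parental over knockout, of 7.42 (95% interval 1.73 to 66.8).

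On the brush border list, the nuclear receptor genes HNF4A and HNF4G differed in direction. HNF4A rose (1.12 ± 0.207 CPM in parental against 3.16 ± 1.18 CPM in knockout tumours; log2 difference 1.49, SE 0.281, adjusted p = 0.00234 by edgeR). HNF4G fell (16.1 ± 1.21 CPM in parental against 9.90 ± 2.22 CPM in knockout tumours; log2 difference -0.71, SE 0.154, adjusted p = 0.00584 by edgeR).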
